A study of Mus musculus with 11 samples.

Results

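The genes Ccl3, Ccl4, Ccl5, Ccl9, Xcl1, Cxcl9 and Cxcl10 encode secreted chemokines that NK cells can make. They were chosen by name, with earlier results of these data known. Matching through their Entrez IDs gave 7 of the 24421 genes in the deposited count table. The libraries are bulk RNA-seq of splenic NK cells carrying Ly49H, an activating receptor for a protein of mouse cytomegalovirus (MCMV), from C57BL/6 mixed bone marrow chimeras, with MCMV infection as the treatment. By title there were 3 KO D2, 3 WT D2, 3 KO D0 and 2 WT D0 libraries, where KO is LDHA-deficient and WT is wild type. KO cells carried CD45.2 and WT cells CD45.1, so genotype and congenic marker cannot be told apart. Neither the removed stretch of Ldha nor its deleter is named in the labels. They give infection day 2 for all 11 libraries, so D0 and D2 here are title terms, and it is unclear whether the mice behind the D0 libraries were infected. For WT libraries the genotype label lists both genotypes, and the title was followed. Each sample is described as a single mouse. The comparisons ask how chemokine transcripts differed between D2 and D0 and whether loss of LDHA, the lactate dehydrogenase subunit of glycolytic cells, altered them.

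Chemokines bind G-protein-coupled receptors and draw leukocytes along a gradient. CCL3, CCL4 and CCL5 attract monocytes, T cells and NK cells. CCL9 is a mouse ligand of CCR1. XCL1 acts through XCR1, which marks cross-presenting dendritic cells. CXCL9 and CXCL10 are interferon-induced ligands of CXCR3, a receptor of activated T cells and NK cells. In mouse infection models, NK cells are known to release CCL3, CCL4, CCL5 and XCL1 together with interferon gamma. In RNA from a bulk sort, fewer cells of a type and less RNA per cell cannot be told apart.

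Sequence upstream of the start site was available for 5 of the 7 genes (RefSeq, GRCm38.p6), and 4 are printed, to set Cxcl10, the gene that rose most, beside the other CXCR3 ligand and ligands of other receptors. Each stretch is the 250 bases before the start, 5′ to 3′ on the gene's own strand, and capitals mark the motif matches named below. They lie at chr5:92348890-92349139 (Cxcl10), chr5:92328080-92328329 (Cxcl9), chr1:164935523-164935772 (Xcl1) and chr11:83649379-83649628 (Ccl3), all on the minus strand.
Cxcl10: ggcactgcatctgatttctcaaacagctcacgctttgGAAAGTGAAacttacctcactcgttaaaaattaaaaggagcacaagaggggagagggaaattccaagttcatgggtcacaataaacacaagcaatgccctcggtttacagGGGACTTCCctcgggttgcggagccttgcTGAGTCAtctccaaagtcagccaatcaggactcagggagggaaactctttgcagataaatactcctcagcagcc
Cxcl9: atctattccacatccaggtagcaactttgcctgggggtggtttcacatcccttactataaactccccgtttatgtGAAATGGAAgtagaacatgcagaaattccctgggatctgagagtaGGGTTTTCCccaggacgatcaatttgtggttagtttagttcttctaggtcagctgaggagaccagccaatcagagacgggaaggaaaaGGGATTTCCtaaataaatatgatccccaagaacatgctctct
Xcl1: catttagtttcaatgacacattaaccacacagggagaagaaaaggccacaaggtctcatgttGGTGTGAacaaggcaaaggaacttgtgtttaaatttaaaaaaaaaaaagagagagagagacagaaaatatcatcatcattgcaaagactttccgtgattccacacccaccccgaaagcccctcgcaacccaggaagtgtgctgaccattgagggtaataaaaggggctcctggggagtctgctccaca
Ccl3: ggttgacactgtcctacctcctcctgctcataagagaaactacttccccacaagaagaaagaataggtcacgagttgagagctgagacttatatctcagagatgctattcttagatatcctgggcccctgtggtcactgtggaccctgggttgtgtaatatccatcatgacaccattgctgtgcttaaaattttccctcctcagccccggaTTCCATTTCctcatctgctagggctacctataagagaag

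Motifs were searched on both strands in windows running 250 bases before to 50 bases after the start, with letters chosen after the sequences were seen. They were the interferon response element ISRE (GAAANNGAA), the kappaB site of NF-kappaB (GGGNNTTCC), the AP-1 site (TGANTCA) and the T-box site (GGTGTGA). Other forms of these sites, with other letters or another length, were not searched and are not marked. The Cxcl10 window held ISRE at -213, kappaB at -103 and AP-1 at -74 relative to the start. The Cxcl9 window held ISRE at -175, kappaB at -130 and -42, and AP-1 at 32, beyond the printed stretch. The Ccl3 window held ISRE at -39 on the reverse strand, and the Xcl1 window held the T-box letters at -188. In Ccl9, which is not printed, kappaB lay at -35 on the reverse strand and AP-1 at -53. Among 32851 promoter windows of the same length, ISRE letters were in 8.56%, kappaB in 5.82%, AP-1 in 7.81% and T-box in 3.98%. None of the 4 marked motifs overlapped another in these windows. A match describes letters and says nothing of binding in these cells.

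The 11 libraries held between 19452460 and 27992092 counts, so that 3 counts, taken as the floor, were 0.107 to 0.154 CPM (counts scaled to a common library size). Floors are taken on unadjusted totals and cover counting error only. Ldha stood at 101 to 115 CPM in KO D2 and 2753 to 3101 CPM in WT D2 libraries, against 91.1 to 104 CPM in KO D0 and 563 to 656 CPM in WT D0. All 8 NK cell markers were present and summed to 9430 to 14298 CPM per library, with Nkg7 highest. The macrophage and monocyte list (11 genes) summed to 14.2 to 16.3 CPM in KO D2 and 18.8 to 24.8 CPM in WT D2, against 18.6 to 44.9 CPM in KO D0 and 50.7 to 69.8 CPM in WT D0. Across all libraries the other lists summed to 16.3 to 32.4 CPM for T cells, 31.5 to 56.8 CPM for B cells (mostly Cd22), 6.07 to 20.5 CPM for dendritic cells, 1.27 to 7.71 CPM for neutrophils, 0.924 to 2.99 CPM for basophils and mast cells, and 41.9 to 932 CPM for erythroid cells and platelets. Pax5, Cd209a and Mmp8 were at 0 in all 6 D2 libraries, but their lists were not. B cell sums were 37.4 to 51.9 CPM in KO D2 and 31.5 to 56.8 CPM in WT D2. At D0 they were 31.9 to 41.7 CPM in KO and 35.1 to 35.9 CPM in WT. Dendritic cell sums were 8.32 to 9.67 CPM in KO D2 and 8.81 to 20.5 CPM in WT D2. At D0 they were 6.07 to 10.05 CPM in KO and 6.86 to 7.72 CPM in WT. Neutrophil sums were 1.27 to 1.64 CPM in KO D2 and 1.70 to 3.14 CPM in WT D2. At D0 they were 1.85 to 7.71 CPM in KO and 4.05 to 7.30 CPM in WT. The part of other cell types in the chemokine values was not tested.

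All 7 genes changed between D2 and D0 in both genotypes. Ccl3, Ccl4, Ccl9, Xcl1, Cxcl9 and Cxcl10 rose, and Ccl5 fell (edgeR quasi-likelihood test, Benjamini-Hochberg adjusted p under 0.05 over 13711 genes). In KO cells 6 of 7 were higher and 1 lower at D2, beside 27% of all tested genes called higher and 34.5% called lower. In WT cells the count was the same, 6 higher and 1 lower, beside 27.5% and 26% of all genes. The median log2 fold change of the 7 genes was 2.16 in KO and 2.11 in WT, beside -0.20 and -0.07 over all genes tested. Because the 7 were chosen with earlier results of these data known, the all-gene values are a description and no independent test. No D2 library overlapped a D0 library of its genotype for any of the 7. In KO, 29.2% of all tested genes lay wholly above at D2 and 37.8% wholly below, and in WT 33.6% lay above and 34.9% below.

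**Figure D1:**
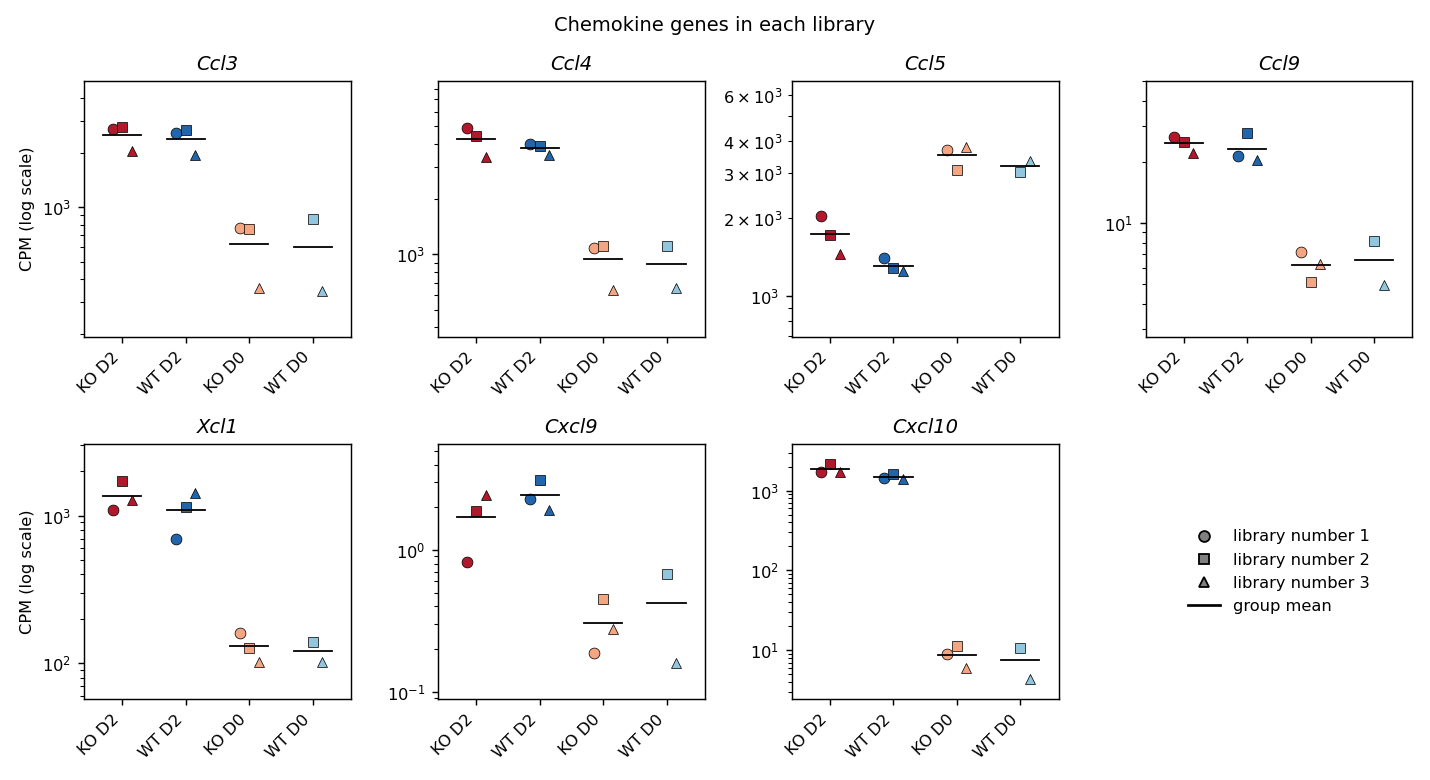
CPM of each chemokine gene (log scale) in each library, by group, with the symbol giving the library number and the line the group mean. Cxcl10 stands between 1398 and 2149 CPM in the D2 libraries and between 4.33 and 11.2 CPM in the D0 libraries, while Ccl5 is lower in all D2 than in all D0 libraries.

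Among the CXCR3 ligands, Cxcl10 had the largest change of the 7 genes. It lies at chr5:92346638-92348889 within the gene model of Art3. Its level was 1732, 2149 and 1703 CPM in KO D2 and 1445, 1616 and 1398 CPM in WT D2 libraries. In D0 libraries it was 8.88, 11.2 and 6.05 CPM in KO and 10.5 and 4.33 CPM in WT. The D2 libraries were therefore high in both genotypes and the D0 libraries low, with the D0 libraries numbered 3 lowest in each. Cxcl10 rose 212-fold in KO (95% confidence interval 127 to 356, edgeR adjusted p = 4.99e-09) and 200.4-fold in WT (interval 108 to 372, edgeR adjusted p = 3.14e-08). Of 13711 genes ranked by log2 fold change at D2 over D0, it stood at rank 8 in KO and rank 10 in WT.

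Cxcl9, at chr5:92321331-92328079, was near the floor at D0 and low at D2. Its counts were 16, 40 and 54 in KO D2 and 46, 69 and 46 in WT D2, which are 0.819, 1.90 and 2.44 CPM and 2.29, 3.12 and 1.91 CPM. In D0 libraries the counts were 5, 13 and 6 in KO and 21 and 5 in WT, or 0.187, 0.454 and 0.277 CPM and 0.679 and 0.158 CPM. No D2 library was as low as a D0 library, although KO D2 number 1 came close to WT D0 number 2. Cxcl9 rose by 2.46 on the log2 scale in KO (SE 0.56, edgeR adjusted p = 0.00191) and 2.53 in WT (SE 0.61, edgeR adjusted p = 0.00332). Macrophages are a known source of CXCL9. Of the 11 macrophage and monocyte genes 2 rose and 4 fell in KO at D2, beside 27% and 34.5% of all tested genes. In WT 2 rose and 5 fell, beside 27.5% and 26%. C1qa and Fcgr1 were picked from this list after their values were seen. The complement gene C1qa was at 1.43 to 1.90 CPM in KO D2 and 1.44 to 2.35 CPM in WT D2, against 1.09 to 1.82 CPM in KO D0 and 2.42 to 2.88 CPM in WT D0. Fcgr1, the gene of the macrophage Fc receptor CD64, rose by 3.92 in KO (edgeR adjusted p = 0.00181) and 3.37 in WT (edgeR adjusted p = 0.0036) on the log2 scale, whereas Lyz2, the lysozyme gene of myeloid cells, fell by 2.10 in KO (edgeR adjusted p = 1.27e-04) and 2.66 in WT (edgeR adjusted p = 3.82e-05). All 11 genes together summed to only 14.2 to 16.3 CPM in KO D2 and 18.8 to 24.8 CPM in WT D2. The rise of Fcgr1 is therefore one at low levels. The part of macrophages in the Cxcl9 and Cxcl10 counts was not tested.

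The CC chemokine genes Ccl3 and Ccl4 are neighbours on chromosome 11, at chr11:83647843-83649378 and chr11:83648624-83664683, and their RefSeq models overlap by 755 bases. Ccl3 was at 2712.5, 2762 and 2038 CPM in KO D2 and 2564, 2678 and 1936 CPM in WT D2 libraries, against 765, 758 and 359 CPM in KO D0 and 857 and 346 CPM in WT D0. Ccl4 was at 4885, 4420.2 and 3383 CPM in KO D2 and 4013, 3913 and 3473 CPM in WT D2 libraries, against 1082, 1110.4 and 640.2 CPM in KO D0 and 1108 and 654 CPM in WT D0. Both genes were high at D2 in both genotypes, and in each of the 4 groups the library numbered 3 was lowest. Ccl3 rose 3.99-fold in KO (interval 2.43 to 6.56, edgeR adjusted p = 1.78e-04) and 3.98-fold in WT (interval 2.23 to 7.09, edgeR adjusted p = 7.41e-04). Ccl4 rose 4.48-fold in KO (interval 3.14 to 6.39, edgeR adjusted p = 5.15e-06) and 4.31-fold in WT (interval 2.85 to 6.53, edgeR adjusted p = 3.09e-05). The ratio of Ccl3 to Ccl4 counts stayed between 0.530 and 0.773 over the 11 libraries. The share of reads that the overlap could pass from one gene to the other was not tested.

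The size of the rises in WT varied with which WT D0 library was used. Without WT D0 number 2 the log2 fold change in WT was 2.72 for Ccl3, 2.47 for Ccl4, 2.17 for Ccl9, 3.84 for Cxcl9 and 8.36 for Cxcl10. Without WT D0 number 3 it was 1.43 for Ccl3, 1.73 for Ccl4, 1.46 for Ccl9, 1.79 for Cxcl9 and 7.09 for Cxcl10. Each of these changes was still called, and the lone WT D0 library was then assumed to vary like the other groups. Leaving out both D0 libraries numbered 3, a choice made after seeing the data, gave 1.67 in KO and 1.43 in WT for Ccl3, and all 7 genes were still called in both genotypes.

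Ccl5, a CC chemokine gene known to be transcribed in resting NK and memory T cells, moved the other way. It lies at chr11:83525778-83530518, inside the model of the lncRNA gene Gm32650. Its level was 2045, 1714.5 and 1459 CPM in KO D2 and 1397, 1277.5 and 1247 CPM in WT D2 libraries, against 3683, 3073.5 and 3791 CPM in KO D0 and 3033 and 3338 CPM in WT D0. The D2 libraries were all below the D0 libraries. Ccl5 fell 2.02-fold in KO (log2 -1.02, SE 0.13, edgeR adjusted p = 2.74e-05) and 2.44-fold in WT (log2 -1.28, SE 0.15, edgeR adjusted p = 9.95e-06).

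Xcl1, at chr1:164931644-164935522, is on the chromosome that also carries Ptprc, the gene of the CD45 marker. It was at 1089, 1707 and 1272 CPM in KO D2 and 695, 1153 and 1436 CPM in WT D2 libraries, against 160.1, 128 and 102 CPM in KO D0 and 140.2 and 102 CPM in WT D0. All D2 libraries were above all D0 libraries, and the spread at D2 was widest in WT. Xcl1 rose 10.4-fold in KO (interval 6.85 to 15.8, edgeR adjusted p = 4.53e-07) and 9.02-fold in WT (interval 5.53 to 14.7, edgeR adjusted p = 4.03e-06).

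Ccl9, at chr11:83572917-83578636, was a low transcript throughout. It was at 26.7, 25.1 and 22.3 CPM in KO D2 and 21.4, 27.9 and 20.5 CPM in WT D2 libraries, against 7.19, 5.09 and 6.24 CPM in KO D0 and 8.14 and 4.94 CPM in WT D0. The D2 libraries were high and did not overlap the D0 libraries. Its log2 fold change was 2.00 in KO (SE 0.22, edgeR adjusted p = 4.91e-06) and 1.83 in WT (SE 0.25, edgeR adjusted p = 4.36e-05). Of the 31-base words in its transcripts 3.75% also occur in another gene, against 0.574% for Cxcl9, 0.539% for Ccl5 and 0% for the other 4, so its reads could be shared in counting.

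**Figure D2:**
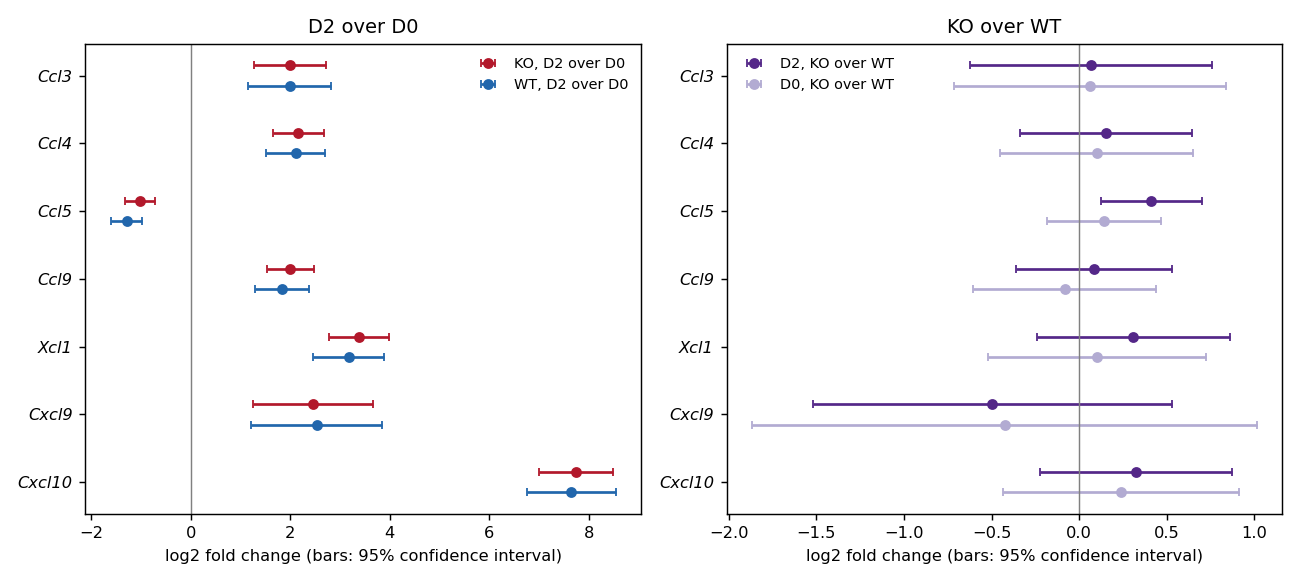
Log2 fold changes of the 7 genes with 95% confidence intervals, for D2 over D0 in each genotype (left) and KO over WT at each title day (right). All intervals on the left lie away from 0, and on the right only that of Ccl5 at D2 (0.12 to 0.70) does.

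The genotypes were compared next. By edgeR, 0 of the 7 genes were called between KO and WT at D2, beside 1.61% of all tested genes called higher and 14.5% called lower. At an unadjusted p under 0.05 the count was 1, Ccl5, and DESeq2 also called 1, Ccl5. At D0 the count was 0 of 7 by edgeR, at an unadjusted p and by DESeq2, beside 0.0948% of genes called higher and 0.0583% called lower. The D2 to D0 change was called different between genotypes for 0 of 7, again by all 3 counts, beside 0.124% higher and 5.72% lower. The median log2 fold change of the 7 genes in KO over WT was 0.15 at D2 and 0.10 at D0, beside 0.01 and 0.02 over all genes.

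Ccl5 averaged 1740 ± 294 CPM in KO D2 and 1307 ± 79.4 CPM in WT D2 libraries (SD, n = 3 each). KO over WT was 1.33-fold (interval 1.09 to 1.63, log2 0.41, SE 0.13), with an edgeR adjusted p of 0.0546. Same-numbered KO and WT libraries deviated together at D2, and with the number as a block Ccl5 stood at 0.40 (SE 0.075) with an edgeR adjusted p of 0.00267. In the same-numbered pairs KO exceeded WT by 0.55, 0.42 and 0.23 on the log2 scale. Without KO D2 number 1 the value was 0.26 (edgeR adjusted p = 0.298). Without KO D2 number 3 it was 0.51 (edgeR adjusted p = 0.031), and without KO D0 number 3 it was 0.40 (edgeR adjusted p = 0.0485). The D0 averages of Ccl5 were 3516 ± 387 CPM for the 3 KO libraries and 3185 ± 216 CPM for the 2 WT libraries, a log2 difference of 0.14 (interval -0.18 to 0.47).

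Cxcl10 averaged 1861 ± 249 CPM in KO D2 and 1487 ± 115 CPM in WT D2 libraries (SD, n = 3 each). KO over WT was 1.25-fold (interval 0.857 to 1.83, edgeR adjusted p = 0.501). With the number as a block the log2 value was 0.32 (SE 0.075, edgeR adjusted p = 0.00987). In the same-numbered pairs KO exceeded WT by 0.26, 0.41 and 0.28. For Ccl5 and Cxcl10 all KO D2 libraries lay above all WT D2 libraries, as they did for 12.4% of all tested genes. KO is then higher in any pairing of these libraries, so the direction of the pairs adds no support. The block called these 2 of the 7 genes higher and 0 lower, beside 6.56% of all tested genes called higher and 18.6% called lower with it.

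GC content moved with the KO to WT comparison at D2. The 7 genes have their most GC-rich 100-base stretch between 59% and 69% GC, and the 4214 tested genes in that range had a median log2 fold change of 0.12 in KO over WT at D2, against -0.13 in the 8066 genes above it. With an offset for GC, chosen after seeing the data, Ccl5 was at 0.28 (edgeR adjusted p = 0.204), or 0.27 (edgeR adjusted p = 0.0199) with the block as well. Cxcl10 was at 0.19 (edgeR adjusted p = 0.701), or 0.18 (edgeR adjusted p = 0.115) with the block as well. With that offset 617 genes were called higher and 1131 lower in KO at D2, beside 221 and 1986 without it.

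The other 5 genes were not called between KO and WT at D2 in any setting run. The log2 values for KO over WT were 0.07 for Ccl3 (interval -0.63 to 0.76), 0.15 for Ccl4 (-0.34 to 0.65), 0.08 for Ccl9 (-0.36 to 0.53), 0.31 for Xcl1 (-0.24 to 0.86) and -0.50 for Cxcl9 (-1.52 to 0.53). Xcl1 was higher in KO in pairs 1 and 2, by 0.65 and 0.57, and lower by 0.17 in pair 3. Cxcl9 was lower in KO in pairs 1 and 2. Ccl3 differed by 0.05 to 0.08 in its 3 pairs. At D0 the KO and WT libraries overlapped for each of the 7 genes, with log2 values from -0.43 (Cxcl9) to 0.24 (Cxcl10). The D2 to D0 change differed between genotypes by -0.07 (Cxcl9) to 0.27 (Ccl5), with intervals as wide as -1.99 to 1.85 for Cxcl9.

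**Figure D3:**
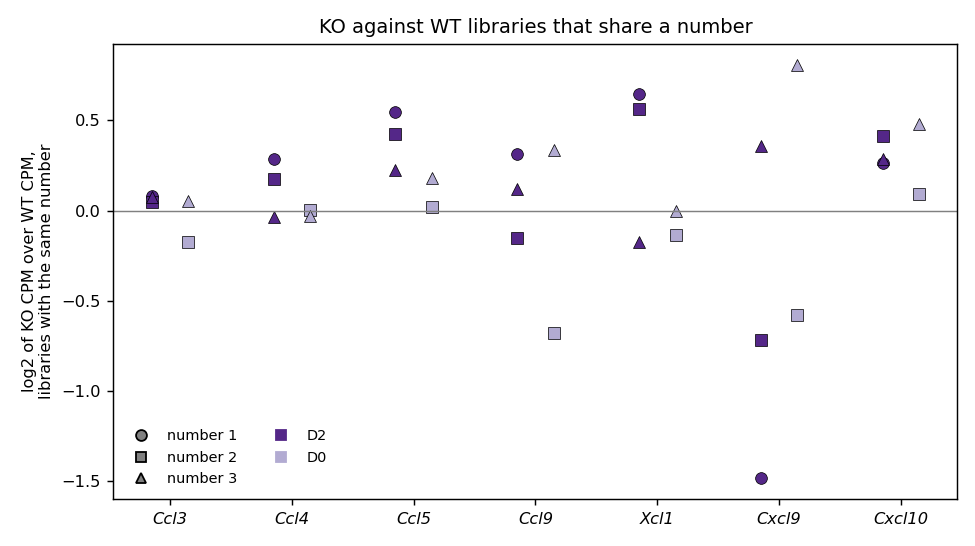
Log2 of KO CPM over WT CPM for libraries sharing a number (symbol), at D2 (dark) and D0 (light). At D2 Ccl5 lies between 0.23 and 0.55 and Cxcl10 between 0.26 and 0.41 in the 3 pairs, while Xcl1 and Cxcl9 fall on both sides of 0.

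To compare genes with each other, counts were divided by transcript length and scaled to the same total in every library (TPM). On that scale Ccl4 led at D2, at 11580 ± 1959 in KO and 10330 ± 881 in WT (SD, n = 3 each), while its D0 levels were 3670 ± 1109 in the 3 KO and 3569 ± 1459 in the 2 WT libraries. Ccl5 led at D0 and was at 5910 ± 924 in KO D2 and 4406 ± 273 in WT D2, with 16840 ± 1513 in KO D0 and 15850 ± 313 in WT D0. Among all genes of a library Ccl5 ranked 11 to 15 in KO D2 and 17 to 19 in WT D2, against 2 to 3 in KO D0 and 3 in WT D0.

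Ccl3 was at 5909 ± 885 in KO D2, 5608 ± 1004 in WT D2, 2105 ± 822 in KO D0 and 2112 ± 1349 in WT D0 on the length scale. Its D2 level in KO was within the spread of that of Ccl5. Xcl1 reached 4694 ± 1093 in KO D2 and 3750 ± 1264 in WT D2, with 637 ± 153 in KO D0 and 618 ± 165 in WT D0. The spreads of Ccl3, Ccl5 and Xcl1 overlapped at D2 in WT as well. Cxcl10 followed at 3078 ± 399 in KO D2 and 2438 ± 227 in WT D2, with 20.4 ± 6.57 in KO D0 and 18.2 ± 11.4 in WT D0. Ccl9 was at 14.9 ± 1.14 in KO D2, 13.9 ± 2.63 in WT D2, 5.24 ± 0.873 in KO D0 and 5.82 ± 2.28 in WT D0. Cxcl9 had the lowest mean of the 7 in every group, at 1.08 ± 0.531 in KO D2, 1.52 ± 0.411 in WT D2, 0.271 ± 0.125 in KO D0 and 0.392 ± 0.356 in WT D0.

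The make-up of the chemokine transcripts differed between D2 and D0. Ccl5 made up 17.2% to 20.8% of their summed length-scaled level in KO D2 and 15.5% to 17.9% in WT D2, against 66.4% to 81.3% in KO D0 and 64.9% to 79.2% in WT D0. Ccl4 made up 35.3% to 40.1% in KO D2 and 37.1% to 41.3% in WT D2, against 11.1% to 19.3% in KO D0 and 12.5% to 19.1% in WT D0. Cxcl10 made up 8.58% to 10.7% in KO D2 and 8.98% to 9.52% in WT D2, and at most 0.118% in KO D0 and 0.109% in WT D0. The 7 genes together took 0.896% to 1.15% of counts in KO D2 and 0.829% to 0.931% in WT D2 libraries, against 0.546% to 0.676% in KO D0 and 0.503% to 0.625% in WT D0.

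**Figure D4:**
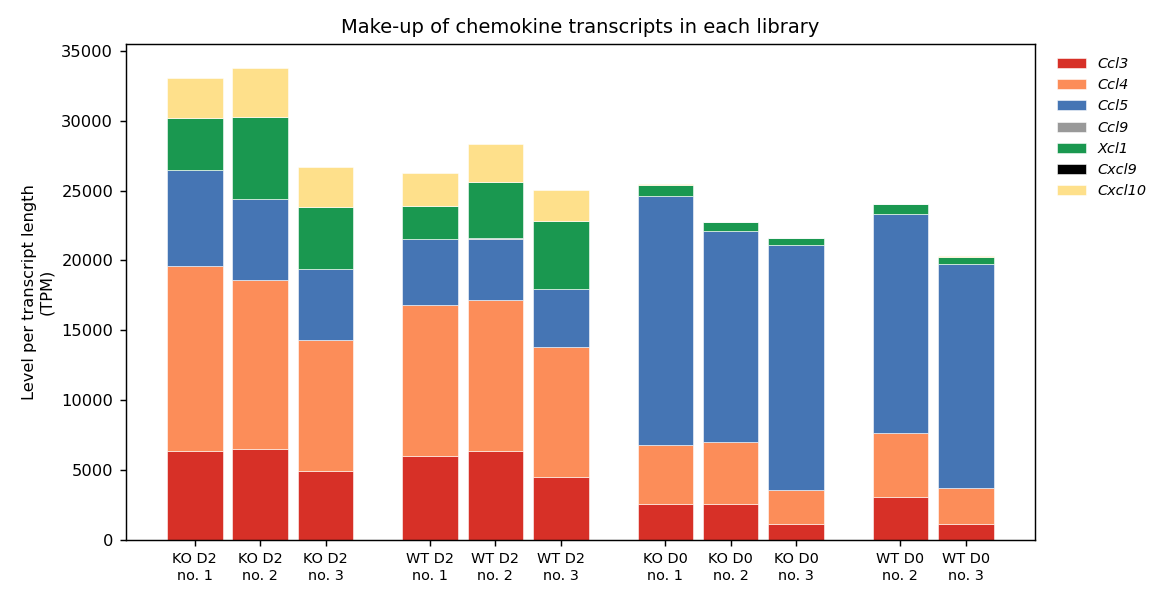
Level per transcript length of the 7 chemokine genes, stacked, in each library (TPM). The bars sum to between 25059 and 33799 in the D2 and between 20284 and 25441 in the D0 libraries. Ccl5 (blue) is the largest block at D0 and Ccl4 (orange) at D2, and Ccl9 and Cxcl9 are too low to see.

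The chemokine receptor genes went both ways, as did all tested genes. Of 23 chemokine receptor genes 17 were tested. In KO 3 rose and 6 fell at D2 against D0, beside 27% and 34.5% of all tested genes. In WT 4 rose and 6 fell, beside 27.5% and 26%. Cxcr3, which binds CXCL9 and CXCL10, was at 6.04 ± 1.82 CPM in KO D2 and 4.11 ± 2.22 CPM in WT D2 (SD, n = 3 each), while the D0 levels were 129 ± 23.4 CPM in the 3 KO and 120.3 ± 21.8 CPM in the 2 WT libraries. Its log2 fold change was -4.42 in KO (SE 0.37, edgeR adjusted p = 4.73e-07) and -4.88 in WT (SE 0.39, edgeR adjusted p = 4.89e-07). Cxcl10 and its receptor gene moved in opposite directions. Xcr1, the receptor of XCL1, averaged 2.86 CPM over the libraries and was not called.

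Ccr7, a receptor for lymph node chemokines, rose by 1.71 in KO (edgeR adjusted p = 0.00554) and 1.58 in WT (edgeR adjusted p = 0.0234) on the log2 scale. In WT the call was lost in 5 of 20 other settings, among them without WT D0 number 2 (1.73, edgeR adjusted p = 0.0761), without WT D0 number 3 (1.34, edgeR adjusted p = 0.147) and without WT D2 number 2 (0.99, edgeR adjusted p = 0.102). The fractalkine receptor gene Cx3cr1 fell by 1.29 in KO (edgeR adjusted p = 0.00438) and 1.94 in WT (edgeR adjusted p = 5.79e-04). Cxcr4, the receptor of CXCL12, fell by 0.93 in KO (edgeR adjusted p = 0.0173) and 1.28 in WT (edgeR adjusted p = 0.00414). The fall in KO was not called without KO D0 number 1 (-0.57, edgeR adjusted p = 0.0702) or KO D2 number 3 (-0.90, edgeR adjusted p = 0.0501), nor that in WT without WT D0 number 2 (-0.93, edgeR adjusted p = 0.0613). Cxcr4, which lies on chromosome 1 with Ptprc, was also lower in KO than in WT at D2, at -1.49 (SE 0.30, edgeR adjusted p = 0.00403). At D0 it was at -1.84 (SE 0.32, edgeR adjusted p = 0.0483), a call lost in 11 of 20 other settings, with adjusted p up to 0.627 by edgeR. These include leaving out KO D0 number 2 or 3, WT D0 number 2 or 3, any KO D2 library or WT D2 number 3. Of the 17 receptor genes 2 were called lower in KO than in WT at D2 and 0 higher, beside 14.5% and 1.61% of all tested genes.

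**Figure D5:**
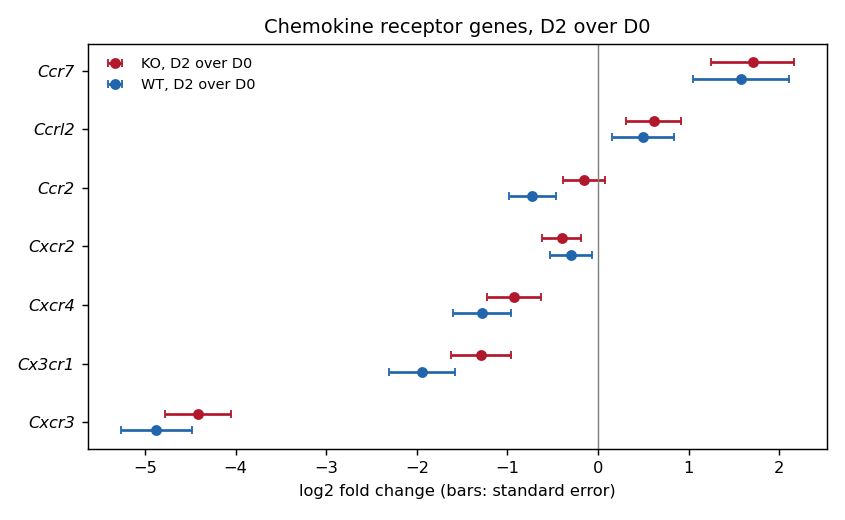
Log2 fold change at D2 over D0 (bars: standard error) of 7 chemokine receptor genes that averaged 5 CPM or more, in KO (red) and WT (blue). Cxcr3 is lowest, at -4.42 in KO and -4.88 in WT, and Ccr7 is highest.

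Other chemokine ligand genes were scarce. Of 31 listed, 11 were tested. In KO 2 rose and 0 fell at D2 against D0, beside 27% and 34.5% of all tested genes. In WT 1 rose and 1 fell, beside 27.5% and 26%. The most abundant, Ccl27a, averaged 4.74 CPM and was lower at D2 in WT (log2 -0.72, edgeR adjusted p = 0.0122) and at -0.32 in KO (edgeR adjusted p = 0.168). Ccl1 rose by 7.89 in KO (SE 0.95, edgeR adjusted p = 1.18e-05) and 7.25 in WT (SE 0.97, edgeR adjusted p = 3.78e-05) on the log2 scale. It averaged 4.27 CPM in KO D2 and 5.61 CPM in WT D2. At D0 it was at most 0.0375 CPM in KO and 0.0633 CPM in WT, below the floor, so the size of its rise is imprecise.

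Cytokine genes known to be expressed with chemokines by NK cells mostly rose. Of 7 listed 6 were tested, and 4 rose and 1 fell at D2 against D0 in each genotype. Of all tested genes 27% rose and 34.5% fell in KO, and 27.5% rose and 26% fell in WT. Ifng rose by 5.40 on the log2 scale in KO (SE 0.51, edgeR adjusted p = 1.41e-06) and 5.40 in WT (SE 0.61, edgeR adjusted p = 8.95e-06). Il10, the gene of an inhibitory cytokine, rose by 7.10 in KO and 7.89 in WT, and Csf2, the GM-CSF gene, by 4.09 in KO and 3.34 in WT. Ltb, which encodes lymphotoxin beta, fell by 4.71 in KO and 3.92 in WT. Between KO and WT none of the 6 was called at D2 or D0 by edgeR. Of all tested genes 1.61% were higher and 14.5% lower in KO at D2, and 0.0948% and 0.0583% at D0.

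Genes of the signals known to induce chemokine transcription, 25 in all, went both ways, as did all tested genes. In KO 9 rose and 11 fell at D2 against D0, beside 27% and 34.5% of all tested genes. In WT 10 rose and 10 fell, beside 27.5% and 26%. Irf7, an interferon regulatory factor, rose by 2.77 in KO (edgeR adjusted p = 1.27e-08) and 2.12 in WT (edgeR adjusted p = 3.13e-07) on the log2 scale. The IL-12 receptor gene Il12rb1 rose by 2.53 in KO and 2.60 in WT. The IL-18 receptor gene Il18rap fell by 0.92 in KO and 1.44 in WT. Between KO and WT at D2 the 7 chemokine genes were not called. Of the 25 signal genes 1 was higher and 6 were lower, beside 1.61% and 14.5% of all tested genes. The lower ones included the NF-kappaB genes Nfkb2 (-1.42, SE 0.25, edgeR adjusted p = 0.00152) and Relb (-1.72, SE 0.34, edgeR adjusted p = 0.00326) and the interferon receptor gene Ifnar2 (-1.26, SE 0.18, edgeR adjusted p = 5.18e-04). Il18rap was the higher one (0.40, SE 0.10, edgeR adjusted p = 0.0128). Its call was lost without KO D2 number 1 or 3 or WT D2 number 1, with edgeR adjusted p from 0.0549 to 0.0587, and with the GC offset (0.27, edgeR adjusted p = 0.163).

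AU-rich elements in the 3′ untranslated region mark transcripts for decay, and the GENCODE transcripts of the 7 genes differ in them. The pentamer ATTTA occurred 5 times in the 409 bases of the Ccl3 region, or 12.2 per kilobase, a density reached by 0.844% of 19196 genes with such a region, whose median was 1.10 per kilobase. The density was 6.62 in Ccl4 (2 copies), 7.09 in Xcl1 (1 copy), 2.74 in Cxcl10 and 2.03 in Ccl9. Cxcl9 had 3 copies in 2452 bases, and Ccl5 had 0 copies in 199 bases. Any copy was present in 62.2% of the 19196 genes. The part of transcript decay in the changes of the 7 genes was not tested. Of 6 genes for factors that act on such transcripts, Zfp36, Zfp36l1 and Zfp36l2 fell at D2 against D0 in both genotypes. In KO 1 of the 6 rose and 3 fell, beside 27% and 34.5% of all tested genes. In WT 2 rose and 3 fell, beside 27.5% and 26%. Zfp36, which encodes tristetraprolin, fell by 1.90 in KO (edgeR adjusted p = 7.45e-05) and 1.99 in WT (edgeR adjusted p = 1.17e-04). Khsrp rose by 0.57 in KO (edgeR adjusted p = 0.00278) and 1.40 in WT (edgeR adjusted p = 9.35e-06), and Elavl1 rose in WT (0.96, edgeR adjusted p = 0.00153). Elavl1 was at -0.62 in KO over WT at D2 (edgeR adjusted p = 0.0304), a call lost in 9 of 20 other settings. It was lost without KO D2 number 1, 2 or 3 or WT D2 number 2 or 3, with RLE scaling and with only the compared groups, and with the GC offset the value was -0.02 (edgeR adjusted p = 0.967), or -0.01 (edgeR adjusted p = 0.943) with the block as well.

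Over the 11 libraries, which separate by title day, genes averaging 5 CPM or more were ranked by how like their log2 CPM was to that of each chemokine gene, as a description. For Ccl3 they were Gnaq (Pearson correlation 0.991), Ccl4 (0.989) and Rel (0.988), and for Ccl4 they were Lilr4b (0.992), Cd69 (0.991) and Cd274 (0.990). Dtx3 (0.994), Vamp5 (0.991) and Gmfg (0.990) were closest to Ccl5. Nvl, Rbpj and Mctp2 were closest to Ccl9, at 0.990 to 0.991, and Prdx4, Pdcd1lg2 and Gtpbp4 to Xcl1, at 0.991 each. Litaf (0.998), Ifi204 (0.997) and Prps1 (0.997) were closest to Cxcl10. Cxcl9, with few counts, had lower values, 0.957 for Nln, 0.955 for Oxsr1 and 0.950 for Tgif2.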

How the data were processed

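The authors deposited 1 table of raw counts (whole numbers, rows by Entrez ID). Per the submitters' processing notes, upstream tools were DESeq2 1.22.2, Salmon 0.13.1 (listed also as 13.1), Trimmomatic 0.36 and bcl2fastq 2.20.0.422, and the build was mm10. The role of each tool is not given in the sources used here, so the counts may be rounded estimates, which can divide reads unevenly between overlapping or similar genes. Whether strand was used is not given, so reads of overlapping genes cannot be told apart. Symbols and positions came from RefSeq (GRCm38.p6), which matched 24387 of 24421 IDs. Transcript sequences, and so lengths, GC content, shared words and untranslated regions, came from GENCODE.

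The quasi-likelihood test of edgeR 4.0.16 (R 4.3.3) was run with TMM scaling and robust dispersion after filterByExpr, leaving 13711 genes, with all 7 chemokine genes among them. All 11 libraries entered 1 fit with 4 group means, leaving 7 residual degrees of freedom. There were 5 contrasts, with Benjamini-Hochberg adjustment over all tested genes in each, and a gene was called at an adjusted p under 0.05. Standard errors were derived from the F statistic, and intervals are 95%. CPM use TMM scaling. The fit was tested on simulated data first. Total counts ran from 21902080 to 24371249 in KO D2, 23361983 to 27702679 in WT D2, 19452460 to 24754212 in KO D0 and 25510842 to 27992092 in WT D0.

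Other settings were RLE scaling, DESeq2 1.42.0 with its Wald test, all genes unfiltered, a mean of at least 5 CPM, only the compared groups, a replicate block, each library left out, and, chosen after seeing the data, a GC offset, that offset with the block, and both D0 libraries numbered 3 left out. Whether library numbers pair the samples was checked from deviations from group means over genes averaging 5 CPM or more. At D2 the correlation of KO and WT libraries of the same number was 0.490, 0.462 and 0.352, and the numbers were taken as pairs there. Same-numbered KO D0 and WT D2 libraries correlated to a like degree, at 0.473, 0.472 and 0.364. These values therefore do not show that a number marks cells of one chimera, and what links the numbers was not tested. At D0 only 2 numbers are shared (0.0359 and 0.596), and with 2 WT D0 libraries their deviations are mirror images, which leaves pairing unsettled. Block fits for KO against WT, and for the difference between genotypes, used the number within each title day and leave 3 residual degrees of freedom. For D2 against D0 the block was the number across title days. Same-numbered D0 and D2 libraries correlated at 0.102, 0.0398 and 0.205 in KO and at -0.0399 and 0.336 in WT. Pairing across title days is therefore unsettled as well.

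The 7 genes and the gene lists were chosen with earlier results of these data known. From each list the text names the most abundant gene and up to 3 called genes per contrast and direction with the smallest p and a mean of at least 5 CPM, some of them only. Xcr1, Fcgr1, C1qa and Ccl1 were added after their values were seen. For likeness the 3 closest genes were taken. Some genes of the lists enter the counts but are not reported here by name.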

Additional observations from a re-analysis of the deposited data

Results flagged for a closer look

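The change at D2 relative to D0 differed between genotypes for 2 genes named above, by the interaction term of the edgeR fit. For Ifnar2 the difference was -1.29 on the log2 scale (SE 0.27, edgeR adjusted p = 0.0216), with a change of -2.29 in KO and -1.01 in WT. Over the 19 other settings its adjusted p ran from 3.82e-04 to 0.134, and the call was lost in 9 of them. For Khsrp it was -0.83 (SE 0.20, edgeR adjusted p = 0.0349), with a change of 0.57 in KO and 1.40 in WT. Its adjusted p ran from 0.0136 to 0.145 over the 19 other settings, and the call was lost in 12 of them. None of the 7 chemokine genes differed in this test by edgeR.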

How the results depend on the processing

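The calls of all 7 chemokine genes at D2 against D0 kept their direction and stayed past the threshold in each genotype under every setting run. The filter of at least 5 mean CPM removed Cxcl9 and so gave no value for it, leaving 5 genes higher. KO against WT at D0 and the difference between genotypes gave 0 called chemokine genes in all settings run, and using only the compared groups does not apply to the difference. At D2, KO against WT gave 0 called higher in the fit reported above. The count was 1 (Ccl5) with RLE scaling (adjusted p = 0.0229), with the mean of at least 5 CPM (0.0409), with DESeq2 (0.00798), with only the compared groups (0.0338) and with the block and GC offset together (0.0199), and 2 (Ccl5 and Cxcl10) with the replicate block. Leaving out 1 library gave 0 to 1, and log2 values for Ccl5 from 0.26 to 0.51. The replicate block changed no other call of the 7 genes. Over all genes it called 900 higher and 2544 lower at D2, beside 221 and 1986 without it. RLE scaling shifted the median of all genes by 0.11 in KO at D2 against D0 and by 0.09 in KO against WT at D2, and no chemokine gene past the threshold changed sign. The calls over all genes moved more: those lower in the difference between genotypes numbered 784, but 475 with RLE scaling and 4 without WT D0 number 2. Why these counts move was not tested. With 2 WT D0 libraries, and with 5 to 21 counts of Cxcl9 at D0, differences between genotypes at D0 are the least precise.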
